A study of Mus musculus with 58 samples.

Results

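The 39 genes of the 4 mouse Hox clusters were followed in hematopoietic stem cells (HSCs), the rare bone marrow cells from which all blood cells derive. The members were every symbol of the RNA count tables made of Hox, a cluster letter from a to d and a number, 39 of 55376 symbols in all. Of these, 11 lie in the Hoxa cluster on chromosome 6, 10 in Hoxb on chromosome 11, 9 in Hoxc on chromosome 15 and 9 in Hoxd on chromosome 2 (GRCm38, which is mm10). The choice used names and no measured values.

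The RNA libraries came from wild-type C57BL/6 males and covered 6 diet groups. Young mice (3 to 4 months) were fed ad libitum (YAL, n = 4), were calorie restricted by 20% for 1 week and then by 40% for 3 weeks (YCR, n = 4), or were refed for 4 weeks after that (YCRRF, n = 4). Old mice (24 to 26 months) were fed ad libitum (OAL, n = 4), were held at 40% restriction from the age of 3 to 4 months (OCR, n = 4), or were refed for 4 weeks at the end (OCRRF, n = 2). Their HSCs were sorted as lineage-negative, Sca1+, cKit+ cells without CD34 or Flk2 and with CD150. A further 12 libraries came from HSCs of aged donors that had been cultured, given short hairpin RNAs by lentivirus, and grafted into lethally irradiated young females, from whose marrow the donor HSCs (CD45.2+, CD48-, CD150+) were sorted again. These carried a scrambled hairpin (GFP_Scramble, n = 2), a hairpin against Kdr, which encodes a VEGF receptor (GFP_Kdr, n = 4), scrambled hairpins in a pair of vectors (Double_Scramble, n = 2), or the Kdr hairpin with either of 2 hairpins against Bmpr1a, which encodes a BMP receptor (Double_KdrBmpr, n = 4, 2 libraries for each Bmpr1a hairpin). The RNA extraction, the library kit and the sequencer of the transplanted HSCs differed from those of the diet groups, so levels in the 2 sets are given side by side and not compared. The labels do not say whether the libraries of a group came from separate animals, so p-values measure the spread between these libraries. In OCR HSCs H3K4me3 and H3K27me3 were profiled by ChIP-seq (n = 2 each), open chromatin was profiled by ATAC-seq in OCR (n = 4) and OCRRF (n = 2), and the myeloid and stem cell factor PU.1 was profiled in OAL, OCR and OCRRF (n = 2 each). OAL libraries of the histone marks and of ATAC-seq were not analysed here.

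Hox proteins are homeodomain transcription factors. In the embryo they are switched on along the body axis in the order in which the genes lie in each cluster, from the anterior genes with low numbers to the posterior genes with high numbers. In adult blood, genes of the Hoxa and Hoxb clusters are active in stem and progenitor cells and fall silent as cells mature. Hoxa9 promotes HSC self-renewal and drives acute leukemia together with its partner Meis1, Hoxb4 expands HSCs when overexpressed, and Hoxb5 is used as a marker of long-term HSCs. Silent Hox genes are covered by H3K27me3, the mark set by Polycomb repressive complex 2, and active ones carry H3K4me3, to which trithorax-group methyltransferases such as Kmt2a contribute.

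The promoters below belong to the 2 Hoxa genes with the highest RNA counts and to 2 posterior genes that were near 0 in RNA and covered by H3K27me3, and are shown for the range of their base composition. Each is the 250 bases before the RefSeq start site, 5′ to 3′ on the strand of the gene, with every CG dinucleotide in capitals (Hoxa9 chr6:52227371-52227620, minus strand; Hoxa10 chr6:52234940-52235189, minus strand; Hoxa13 chr6:52260881-52261130, minus strand; Hoxd10 chr2:74691641-74691890, plus strand; GRCm38.p6).
Hoxa9: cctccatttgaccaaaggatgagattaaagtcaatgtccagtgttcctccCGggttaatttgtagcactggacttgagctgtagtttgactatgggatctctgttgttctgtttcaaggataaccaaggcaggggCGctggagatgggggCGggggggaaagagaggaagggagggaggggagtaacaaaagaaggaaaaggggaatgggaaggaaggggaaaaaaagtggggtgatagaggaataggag
Hoxa10: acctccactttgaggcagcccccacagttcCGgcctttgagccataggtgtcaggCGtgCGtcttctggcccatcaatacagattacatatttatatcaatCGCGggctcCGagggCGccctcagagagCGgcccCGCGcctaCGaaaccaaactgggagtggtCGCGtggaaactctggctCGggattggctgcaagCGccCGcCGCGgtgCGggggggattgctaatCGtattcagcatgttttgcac
Hoxa13: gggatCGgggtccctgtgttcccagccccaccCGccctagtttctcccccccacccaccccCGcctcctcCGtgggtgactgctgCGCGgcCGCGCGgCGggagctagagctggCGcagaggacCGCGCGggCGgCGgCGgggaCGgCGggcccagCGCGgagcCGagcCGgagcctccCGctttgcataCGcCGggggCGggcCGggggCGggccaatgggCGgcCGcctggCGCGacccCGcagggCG
Hoxd10: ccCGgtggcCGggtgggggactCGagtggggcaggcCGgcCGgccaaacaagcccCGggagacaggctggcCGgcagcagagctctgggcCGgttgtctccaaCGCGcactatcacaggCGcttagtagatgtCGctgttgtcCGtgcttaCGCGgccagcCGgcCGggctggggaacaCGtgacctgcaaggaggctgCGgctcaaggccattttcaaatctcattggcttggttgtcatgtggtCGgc
The Hoxa9 window held 3 CG dinucleotides, the Hoxa10 and Hoxd10 windows 20 each, and the Hoxa13 window 35. No ATAC-seq peak lay at this RefSeq start site of Hoxa9, while peaks lay at other annotated start sites of the gene. Over all 32851 promoter windows of the RefSeq table the median was 6 CG, and over the 24 windows found for 22 of the Hox genes it was 12.5 (range 2 to 35). The letters TATAAA, searched on both strands, stood in 4 of the 24 Hox windows (Hoxa10, Hoxb8, Hoxd4 and Hoxd13) and in 12.4% of all windows. TGATTNAT, the paired site of Pbx and Hox proteins, stood in 2 (Hoxa2 and Hoxd11) and in 2.82% of all windows. The 8 windows of genes without high H3K27me3 had a median of 16 CG (3 to 28) and the 16 windows of genes with it a median of 12 (2 to 35), and these ranges overlapped almost fully.

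The markers of the labelled cell type were present in every library. Levels are given in CPM, the counts of a gene per 1000000 counted reads of its library after scaling by the trimmed mean of M values (TMM). The summed level of 7 HSC genes was 3402 to 4858 CPM in the diet libraries and 2544 to 3432 CPM in the transplanted ones, while 3 T cell genes summed to at most 3.45 CPM. The 3 B cell genes reached 56.3 CPM (in YCR). The 6 myeloid genes reached 380.3 CPM in YAL, 245.4 in YCR, 1064 in YCRRF, 70.5 in the old and 2219 CPM in the transplanted libraries, with no myeloid gene at 0 in every library of a group. The libraries held 11102898 to 36579392 (diet) and 35657999 to 44780217 (transplanted) counted reads. Reads on 1971 olfactory and vomeronasal receptor genes, which HSCs are not known to use, summed to 73.1 to 579.5 CPM in young, 547.8 to 1397 CPM in old and 23.3 to 43.8 CPM in transplanted libraries. All 4 OAL libraries lay above all 4 YAL libraries in this measure. YCRRF replicate 3 stood apart from its group, with 579.5 CPM on receptor genes against 153.2 to 223.4 CPM in the others, and the fold changes of Hoxa5 that rest on it are given without it as well.

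Hox RNA in HSCs came almost entirely from Hoxa and Hoxb. Of all CPM assigned to the 39 genes, Hoxa took 71.8% to 81% in young libraries and 61.8% to 70.7% in old ones, and Hoxb took 18.2% to 26.1% in young and 27.3% to 34.5% in old libraries. Neither pair of ranges overlapped, and old libraries had the smaller Hoxa and the larger Hoxb share. Hoxc reached at most 2.51% and Hoxd at most 1.197% of Hox CPM in any diet library, and all 9 Hoxd genes had no count in any of the 12 transplanted libraries. In the transplanted HSCs Hoxa took 74.0% to 88.4% and Hoxb 11.6% to 25.9%. In bulk RNA, fewer cells of a kind and less RNA per cell cannot be told apart.

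A mean of at least 1 CPM over the 22 diet libraries was reached by 16 of the 39 genes, namely Hoxa2, Hoxa3, Hoxa5, Hoxa6, Hoxa7, Hoxa9, Hoxa10, the 8 genes from Hoxb2 to Hoxb9, and Hoxc6. At this line Hoxb8 lay just inside with 1.06 CPM and Hoxb1 just outside with 0.934 CPM. Per kilobase of exon, where genes can be compared with each other, Hoxa9 was highest with a mean of 18.6 CPM per kb, followed by Hoxa7 with 15.5, Hoxa10 with 15.0, Hoxa5 with 11.2, Hoxb5 with 7.45 and Hoxb2 with 7.14 CPM per kb. The active stretch of Hoxa was thus its central part and the first of its posterior genes, from Hoxa5 to Hoxa10, with a dip to 3.06 CPM per kb at Hoxa6. Hoxa4, which lies between the expressed Hoxa3 and Hoxa5, had 0.384 CPM per kb, and the posterior Hoxa11 and Hoxa13 had 0.0763 and 0.0223 CPM per kb. In Hoxb, levels per kb were highest at Hoxb5 and Hoxb2 and lower toward the posterior end, with 3.90 at Hoxb6, 1.56 at Hoxb7, 0.404 at Hoxb8 and 0.101 CPM per kb at Hoxb13, while Hoxb9 with 2.15 lay above Hoxb7 and Hoxb8. Hoxb3 and Hoxb2 share 52.9% and 27.3% of their exon bases with the antisense gene Hoxb3os, and Hoxa3 shares 27.1% with neighbours. Hoxa7 shares 20.4% with the antisense gene Hoxaas3, and Hoxa11 shares 35% with the antisense gene Hoxa11os. Hoxd3 and Hoxd4 share 62.8% and 52.3% of theirs mainly with each other. The reads of all these genes could be split or mixed by the counting. Hoxa5, Hoxa6, Hoxa10, Hoxb4 and Hoxb6 to Hoxb9 share no exon base with another gene.

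**Figure D1:**
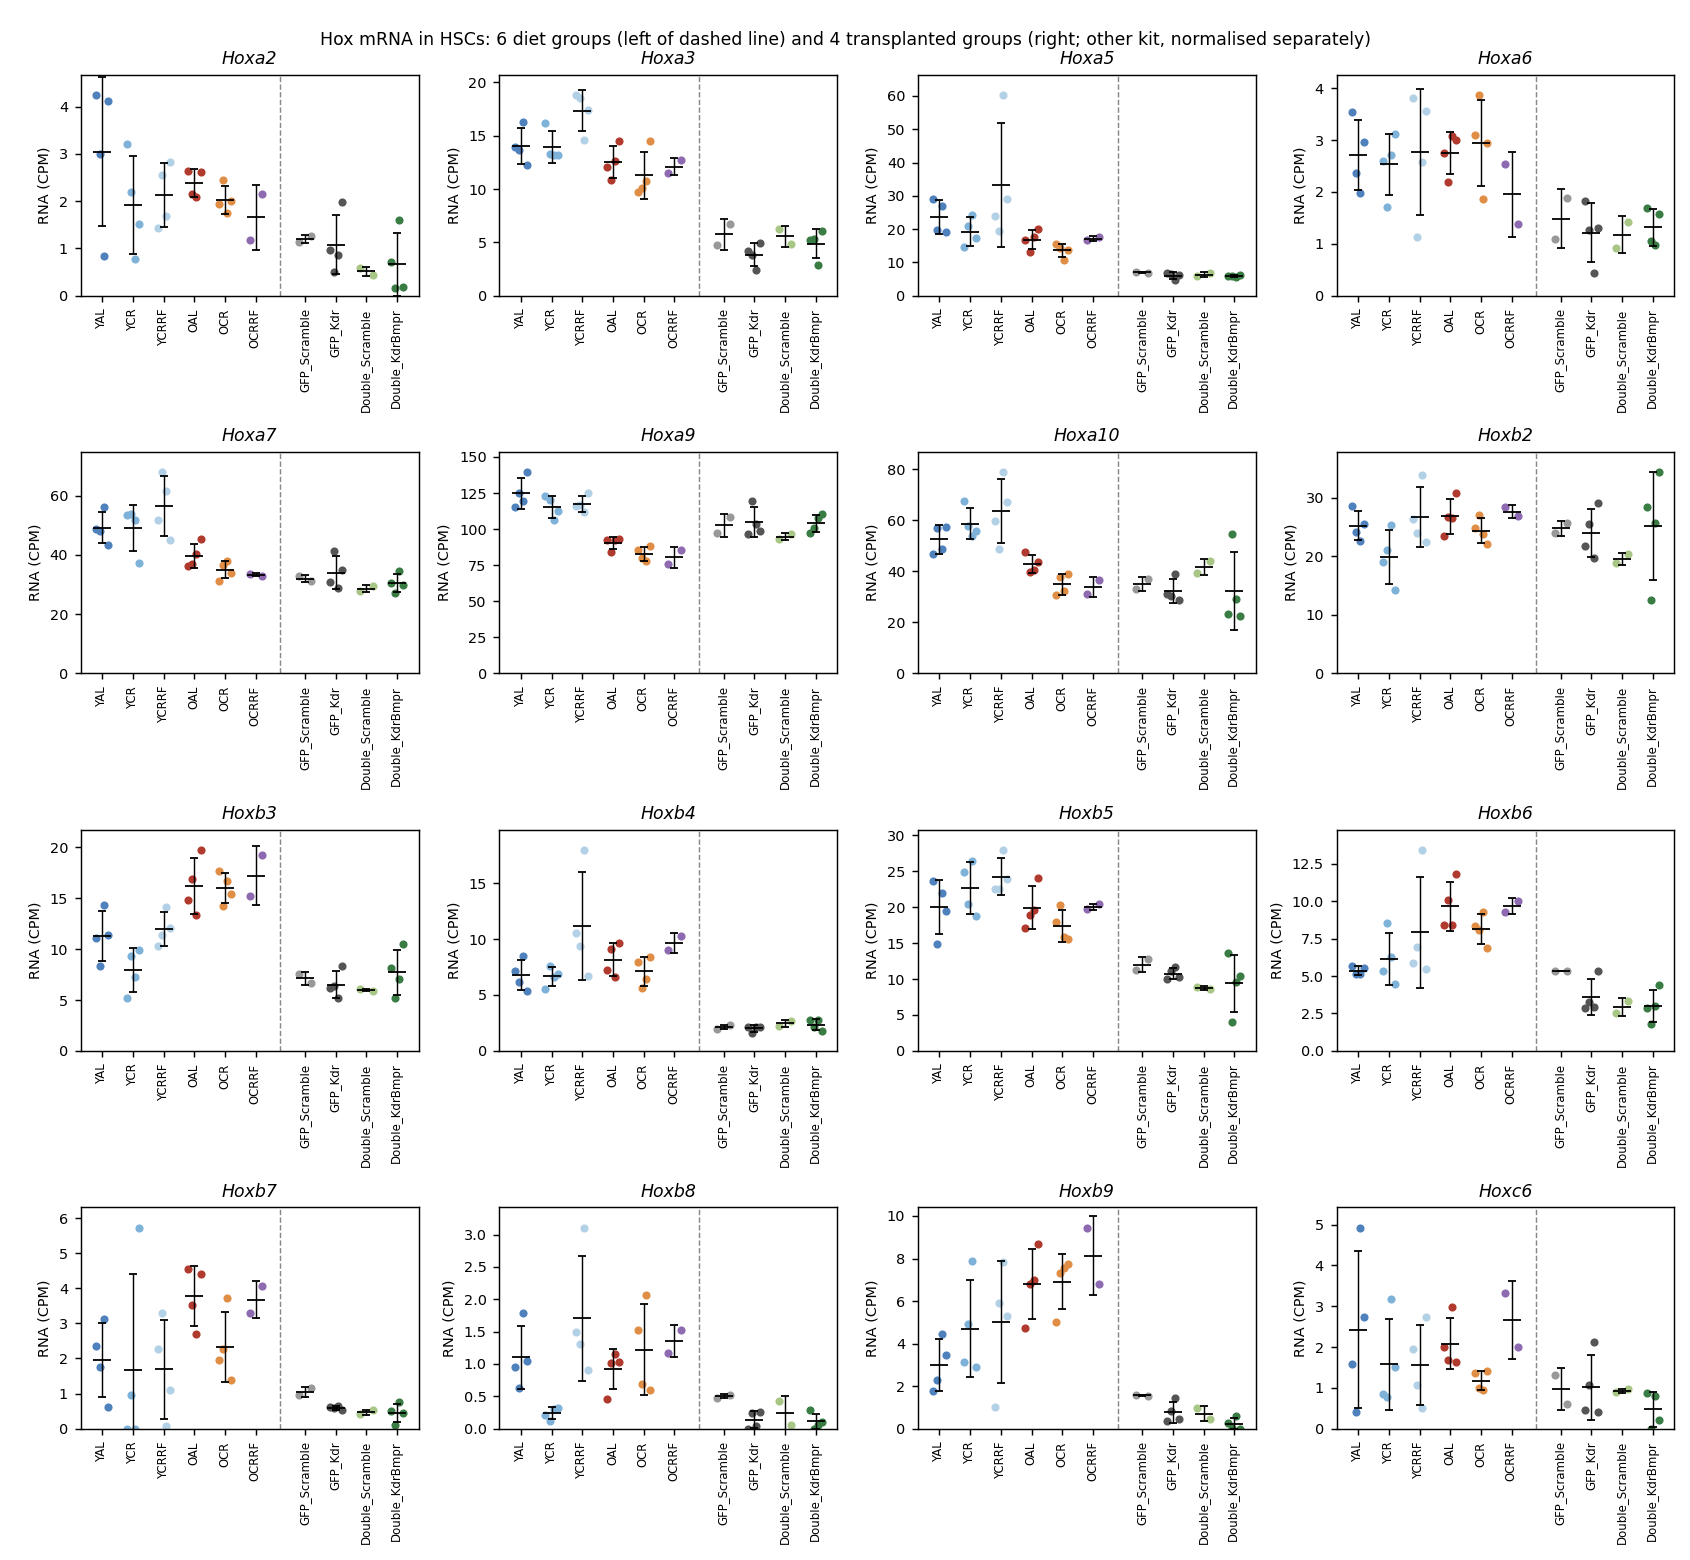
Level of the 16 Hox genes with at least 1 CPM in CPM (vertical axes, each from 0) in every library, by group (horizontal axis), with the diet groups left and the separately normalised transplanted groups right of a dashed line. Points are libraries, ticks and bars are group means ± SD (n = 4, and n = 2 in OCRRF and the scrambled controls), and Hoxa9 lies at 75.4 to 93.0 CPM in all old libraries and at 106.0 to 139.4 CPM in all young ones.

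Hoxa9 (ENSMUSG00000038227, chr6:52223100-52231089, minus strand) had the highest count of the 39 genes in the mean over the diet libraries. It read 115.1, 124.9, 119.5 and 139.4 CPM in YAL and 92.3, 84.1, 92.6 and 93.0 CPM in OAL. In OCR it read 85.2, 79.8, 78.2 and 88.0 CPM and in OCRRF 75.4 and 85.7 CPM. Every old library was below every young library, while the OCR and OAL ranges overlapped. Hoxa9 in YCR read 122.7, 120.0, 106.0 and 112.6 CPM and in YCRRF 115.7, 116.6, 111.7 and 124.9 CPM, and both groups overlapped YAL. Hoxa10, its posterior neighbour, had group means of 52.5 ± 5.58 CPM in YAL, 58.6 ± 5.99 in YCR, 63.6 ± 12.6 in YCRRF, 42.7 ± 3.59 in OAL, 34.9 ± 4.09 in OCR and 33.9 ± 3.86 in OCRRF (SD, n = 4, OCRRF n = 2). For Hoxa7 these means ran from 33.3 ± 0.456 CPM in OCRRF to 56.5 ± 10.2 CPM in YCRRF, and for Hoxa5 from 13.6 ± 2.04 CPM in OCR to 33.2 ± 18.5 CPM in YCRRF, where replicate 3 alone had 60.4 CPM. In single libraries Hoxa7, a central gene, read 48.9, 47.9, 56.0 and 43.5 CPM in YAL, 36.1, 36.9, 40.3 and 45.2 CPM in OAL, 31.2, 36.7, 37.9 and 34.0 CPM in OCR and 33.6 and 33.0 CPM in OCRRF. The OAL and YAL ranges of Hoxa7 overlapped at 1 library of each.

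The group means of Hoxb2 and Hoxb5, the Hoxb genes with the most RNA, differed less. Hoxb2, an anterior gene, had means of 19.9 ± 4.61 CPM in YCR to 27.6 ± 1.08 CPM in OCRRF. Its reads could be mixed with those of Hoxb3os. Hoxb5 had means of 17.4 ± 2.19 CPM in OCR to 24.3 ± 2.56 CPM in YCRRF. In single libraries Hoxb5 read 23.6, 14.9, 22.0 and 19.5 CPM in YAL, 17.0, 18.9, 19.5 and 24.1 CPM in OAL and 17.9, 20.3, 15.8 and 15.6 CPM in OCR, all overlapping. Hoxb3, whose reads could be mixed with those of Hoxb3os, differed more, with means of 7.93 ± 2.17 CPM in YCR to 17.2 ± 2.89 CPM in OCRRF. Hoxb3 read 5.17 to 14.3 CPM in the 12 young and 13.4 to 19.7 CPM in the 10 old libraries, and Hoxb4 read 5.32 to 18.0 and 5.63 to 10.3 CPM. The 18.0 CPM of Hoxb4 was YCRRF replicate 3, and the next highest young value was 10.6 CPM in YCRRF replicate 1. For the lower members the ranges in young and old libraries overlapped as well, from 12.3 to 18.9 and 9.75 to 14.5 CPM for Hoxa3, 0.767 to 4.25 and 1.17 to 2.64 CPM for Hoxa2, and 1.123 to 3.82 and 1.38 to 3.88 CPM for Hoxa6. Hoxb7 spanned 0 to 5.73 and 1.38 to 4.54 CPM, Hoxb8 0.118 to 3.11 and 0.460 to 2.07 CPM, and Hoxc6 0.409 to 4.93 and 0.936 to 3.34 CPM.

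The comparison of OAL with YAL asked how Hox RNA differs with age under free feeding. It was the one comparison of RNA in which Hox genes were called, that is, had an adjusted p below 0.05 over all genes tested and a fold change above 1.2. Of 24 Hox genes with enough counts to be tested, Hoxa9 fell and Hoxb6 and Hoxb9 rose in OAL. The 3 calls are 12.5% of the genes tested, against 14.8% of all 23525 genes tested (6.89% higher and 7.93% lower), so the share of Hox genes called was near the background. The balance of directions over all genes depended on the scaling, with 1620 higher and 1866 lower by edgeR and 2857 higher and 1897 lower by DESeq2, while Hoxa9 stayed lower and Hoxb6 and Hoxb9 stayed higher by both. DESeq2 called 4 Hox genes, adding Hoxb3 (0.58, adjusted p = 0.0330), for which edgeR gave 0.53 ± 0.20 (adjusted p = 0.09995). The median log2 fold change was 0.018 over the 24 Hox genes, 13 of them positive, and 0.045 over all genes, 53.4% of them positive.

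Hoxa9 fell by 0.45 ± 0.08 on the log2 scale (SE), to 0.733 of its YAL level (adjusted p = 0.00644). Its YAL and OAL libraries did not overlap. Hoxb6, a central Hoxb gene expressed in progenitor cells, read 5.67, 5.10, 5.11 and 5.54 CPM in YAL and 8.39, 10.1, 8.40 and 11.8 CPM in OAL. All 4 OAL values lay above all 4 YAL values, with a log2 fold change of 0.87 ± 0.21 (adjusted p = 0.0186). Hoxb9, the posterior gene next to the inactive end of the Hoxb cluster, read 1.77, 2.27, 4.46 and 3.46 CPM in YAL and 4.71, 6.78, 6.99 and 8.70 CPM in OAL. These ranges did not overlap either, although the lowest OAL value was close to the highest YAL value, and the log2 fold change was 1.19 ± 0.34 (adjusted p = 0.0382). The calls for Hoxb6 and Hoxb9 were lost when all groups were fitted together (adjusted p = 0.0563 and 0.0887), and both were lost without OAL replicate 2 or without OAL replicate 4 (0.069 and 0.0974, then 0.0828 and 0.132). The Hoxb9 call was also lost without OAL replicate 1 (0.0600), OAL replicate 3 (0.1001), YAL replicate 1 (0.0570) or YAL replicate 2 (0.0547). With the summed receptor-gene level of each library as a covariate, which lay higher in all OAL than in all YAL libraries so that age and this property of the libraries cannot be told apart, all 3 were lost (Hoxa9 −0.83, adjusted p = 0.183, Hoxb6 0.89, 0.558, Hoxb9 1.84, 0.443) and the number of genes called over the whole table was 14.

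Among the other frequent members, Hoxa5, Hoxa7 and Hoxa10 had log2 fold changes of −0.48 ± 0.19, −0.29 ± 0.12 and −0.28 ± 0.11 in OAL (adjusted p = 0.119, 0.114 and 0.104). These did not pass the test, and each library is in the plot of levels by group. Hoxb2 and Hoxb5 had 0.10 ± 0.13 and 0.0070 ± 0.18 (adjusted p = 0.658 and 0.984). Several marker lists also separated OAL from YAL. The 3 B cell genes summed to 8.29 to 52.9 CPM in YAL and 1.55 to 3.59 CPM in OAL, and Cd34 and Flt3, against which the cells were sorted, to 171.9 to 219.0 and 127.8 to 160.2 CPM. The 6 stromal genes summed to 6.58 to 13.4 CPM in YAL and 17.9 to 20.8 CPM in OAL, and the 3 T cell genes to 0.118 to 1.26 and 1.49 to 2.21 CPM. The ranges overlapped for the 6 myeloid genes (5.17 to 380.3 and 5.77 to 54.1 CPM), the 4 erythroid genes (12.9 to 74.4 and 24.6 to 174.8 CPM) and the 3 endothelial genes (93.6 to 122.6 and 93.1 to 119.0 CPM). None of these genes was at 0 in every library of either group. Their part in the Hox differences was not tested.

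**Figure D2:**
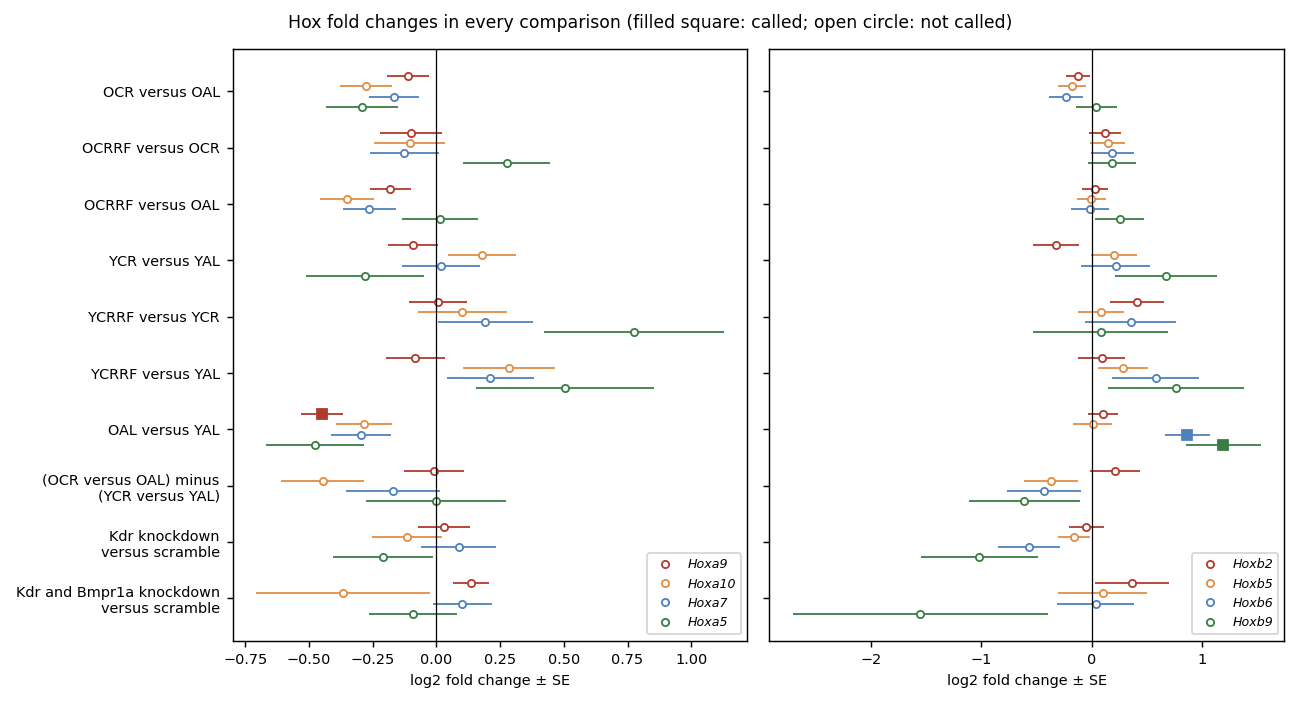
Log2 fold change (horizontal axes) of 4 Hoxa genes (left) and 4 Hoxb genes (right) in each comparison (vertical axis), with bars of ± 1 SE. Filled squares mark called genes, and the 3 of them (Hoxa9 below 0, Hoxb6 and Hoxb9 above 0) stand in the comparison of OAL with YAL.

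Lifelong restriction was addressed by comparing OCR with OAL. None of 28 Hox genes tested was called, against 5.57% of all genes, and DESeq2 called none either, while 5 Hox genes and 16.2% of all genes had an unadjusted p below 0.05. The median log2 fold change was −0.14 over the Hox genes, 18 of them negative, and 0.023 over all genes, 53.5% of them positive. The 6 most frequent members all had lower values in OCR, −0.11 ± 0.08 for Hoxa9, −0.17 ± 0.10 for Hoxa7, −0.29 ± 0.14 for Hoxa5, −0.12 ± 0.11 for Hoxb2 and −0.18 ± 0.13 for Hoxb5 (adjusted p = 0.568, 0.452, 0.300, 0.678 and 0.559), with Hoxa10 described next. For Hoxa10, OAL read 47.5, 39.6, 40.4 and 43.6 CPM and OCR read 30.7, 37.9, 32.1 and 38.9 CPM. These groups did not overlap, but the log2 fold change of −0.27 ± 0.10 did not pass the test (adjusted p = 0.137). Hoxc6 and Hoxb7, at low levels, had −0.80 and −0.69 (adjusted p = 0.126 and 0.135), and Hoxb7 passed the test when OCR replicate 3 was left out (−1.005, adjusted p = 0.0165).

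Refeeding of old restricted mice was addressed by OCRRF against OCR and against OAL. The median log2 fold change over all genes was 0.11 and 0.12 in these comparisons, and 0.16 and 0.067 over the Hox genes. Against OCR none of 34 Hox genes was called (3.41% of all genes were), 2 and 16.9% of all genes had an unadjusted p below 0.05, and DESeq2 called none. Hoxc6 came nearest with 1.124 (adjusted p = 0.0799), and the 6 most frequent members had −0.099 ± 0.12 (Hoxa9), −0.11 ± 0.14 (Hoxa10), −0.13 ± 0.14 (Hoxa7), 0.28 ± 0.17 (Hoxa5), 0.12 ± 0.14 (Hoxb2) and 0.14 ± 0.16 (Hoxb5), all with adjusted p of 0.421 to 0.740. Against OAL none of 32 was called (4.14% of all genes were), and 5 had an unadjusted p below 0.05, as did 26.9% of all genes. Hoxa10 had −0.35 ± 0.10, with OCRRF libraries at 31.1 and 36.6 CPM below all 4 OAL libraries (adjusted p = 0.0600). Hoxa9, Hoxa7, Hoxa5, Hoxb2 and Hoxb5 had −0.18 ± 0.08, −0.26 ± 0.10, 0.014 ± 0.15, 0.028 ± 0.12 and −0.0035 ± 0.13 (adjusted p = 0.159, 0.124, 0.961, 0.890 and 0.990). Hoxd4, a gene that shares exon bases with Hoxd3, had 1.83 (adjusted p = 0.0600), with 39 and 18 counts in OCRRF against 6 to 12 in OAL. DESeq2 called 3 Hox genes in this comparison, Hoxd4 (1.80), Hoxa10 (−0.41) and Hoxa7 (−0.32). The receptor genes summed to 1093 and 1397 CPM in OCRRF and to 547.8 to 764.6 CPM in OAL, and their part in the Hoxd4 counts was not tested.

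Short-term restriction in the young changed no Hox gene past the threshold. In YCR against YAL none of 19 was called (0.257% of all genes were), in YCRRF against YCR none of 19 (0.0102%), and in YCRRF against YAL none of 19 (0%). DESeq2 called none in these comparisons, and 1, 1 and 0 Hox genes had an unadjusted p below 0.05, against 9.29%, 7.27% and 3.69% of all genes. The gene with p below 0.05 was Hoxb8, a central gene, in both of the first 2 comparisons. It read 0.945, 0.630, 1.78 and 1.04 CPM in YAL, 0.205, 0.118, 0.307 and 0.315 CPM in YCR, and 1.495, 1.31, 3.11 and 0.913 CPM in YCRRF. The YCR libraries lay below all others, and the log2 fold changes were −2.16 (adjusted p = 0.396) and 2.80 (adjusted p = 0.415). These comparisons share the YCR libraries. Among the 6 most frequent members, YCR against YAL gave −0.32 ± 0.21 for Hoxb2 to 0.20 ± 0.21 for Hoxb5, with −0.093 ± 0.10 for Hoxa9 (adjusted p = 0.860), and YCRRF against YAL gave −0.083 ± 0.12 for Hoxa9 to 0.50 ± 0.35 for Hoxa5, which was 0.029 without YCRRF replicate 3. Hoxa5 had 0.77 ± 0.35 in YCRRF against YCR (adjusted p = 0.690), and 0.31 without that library.

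The difference between the response to restriction in old and in young HSCs was tested as an interaction. None of 28 Hox genes was called (0.0424% of all genes were), 3 and 8.94% of all genes had an unadjusted p below 0.05, and DESeq2 called none. Hoxa10 had the clearest difference among the most frequent members, −0.45 ± 0.16 (adjusted p = 0.428), with −0.27 in the old and 0.18 in the young. For Hoxa9 and Hoxa5 the differences were −0.0090 ± 0.12 and −0.0023 ± 0.28.

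**Figure D3:**
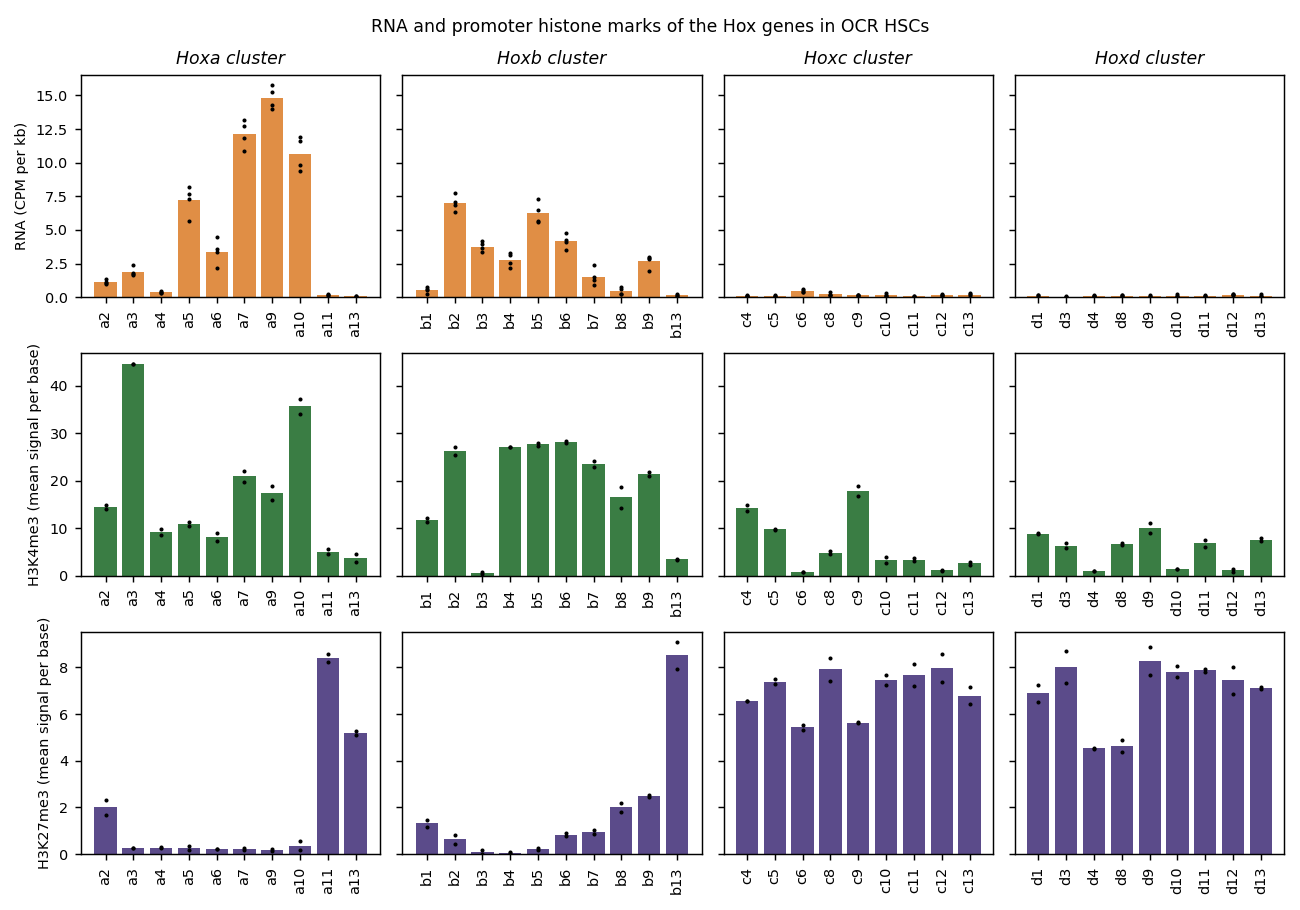
RNA in CPM per kilobase of exon (top), H3K4me3 (middle) and H3K27me3 (bottom) signal per base (vertical axes) of Hox genes in OCR HSCs, ordered by number within its cluster (horizontal axis), with bars for means and dots for libraries (n = 4 for RNA, n = 2 for each mark). RNA is highest at Hoxa5, Hoxa7, Hoxa9 and Hoxa10, where H3K27me3 is below 1 per base, and near 0 in Hoxc and Hoxd, where H3K27me3 is 4.36 to 8.88 per base.

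In transplanted HSCs the targeted genes were checked first. Kdr read 6.04 and 6.07 CPM in GFP_Scramble and 1.93, 2.21, 3.28 and 2.03 CPM in GFP_Kdr, and 3.97 and 4.62 CPM in Double_Scramble against 1.24, 0.555, 1.60 and 1.35 CPM in Double_KdrBmpr. Bmpr1a read 5.21 and 4.43 CPM in Double_Scramble and 4.44, 0.656, 2.22 and 0.595 CPM in Double_KdrBmpr. Kdr was lower in every knockdown library than in its controls, while Bmpr1a in the library Double_KdrBmpr sh1-1 lay between the control values.

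Neither knockdown changed a Hox gene past the threshold. With the Kdr hairpin none of 19 Hox genes was called (0.0149% of all genes were). The median log2 fold change was −0.21 over the Hox genes, 16 of them negative, and −0.0023 over all genes, 49.6% of them positive. These Hox genes share the same control libraries, and several were near 0. With both targets none of 17 was called (0.00498%), with a median of −0.068 over the Hox genes. In each comparison 0 Hox genes had an unadjusted p below 0.05, against 8.90% and 9.85% of all genes, and DESeq2 called 0. Hoxa9 read 97.0 and 108.2 CPM in GFP_Scramble and 96.8, 119.6, 103.8 and 98.6 CPM in GFP_Kdr, and the knockdown range enclosed both control values (0.030 ± 0.10, adjusted p = 0.951). In the double vectors it read 93.1 and 96.6 CPM in Double_Scramble and 97.1, 101.0, 107.6 and 110.4 CPM in Double_KdrBmpr. All 4 knockdown values lay above both control values by a small step, which did not pass the test (0.13 ± 0.07, adjusted p = 0.584). Hoxa10 varied widely there, with 39.4 and 44.0 CPM in Double_Scramble and 23.3, 54.5, 28.9 and 22.3 CPM in Double_KdrBmpr. The library Double_KdrBmpr sh1-2, with 54.5 CPM, also had the lowest Hoxb2 (12.5 CPM) and Hoxb5 (3.99 CPM) of its group. The 6 myeloid marker genes summed to 169.1 to 877.5 CPM in GFP_Scramble, 389.2 to 1875 in GFP_Kdr, 1297 to 2219 in Double_Scramble and 236.8 to 1525 in Double_KdrBmpr. In the same order, Cd34 and Flt3 summed to 394.4 to 469.7, 484.9 to 580.3, 489.5 to 531.9 and 587.3 to 915.0 CPM. They separated both knockdowns from their controls, as did the stromal and endothelial sums. The HSC and B cell sums separated only GFP_Kdr from GFP_Scramble. The T cell and erythroid sums overlapped in both comparisons. The part of these lists in the Hox values was not tested. Hoxb4 read 1.59 to 2.80 CPM over all 12 transplanted libraries and 5.32 to 18.0 CPM over the diet libraries (to 10.6 CPM without YCRRF replicate 3), values that came from different kits.

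The 23 Hox genes under the line of 1 CPM were set beside the receptor genes, since both are near 0. Per kilobase of exon, the 23 Hox genes summed to 0.0259 to 0.326 CPM per kb in young, 0.0917 to 0.195 in old and 0.00177 to 0.0270 in transplanted libraries, and the receptor genes to 0.0122 to 0.0967, 0.0913 to 0.233 and 0.00388 to 0.00730 CPM per kb. In the old libraries the 2 ranges overlapped almost fully, so the sum of these Hox genes there was at the level of the receptor genes. Single genes differed, with means over the diet libraries from 0.0223 (Hoxa13) to 0.402 CPM per kb (Hoxb1), and the sum does not give the level of each. Hoxa13 had no count in any of 12 young libraries and up to 0.300 CPM in the old, and Hoxd13 had at most 0.0624 CPM in the young and 0.646 CPM in the old. The highest young value, 0.326 CPM per kb, belonged to YCRRF replicate 3, which had 86 counts of Hoxd1 against 0 to 6 in the other young libraries.

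**Figure D4:**
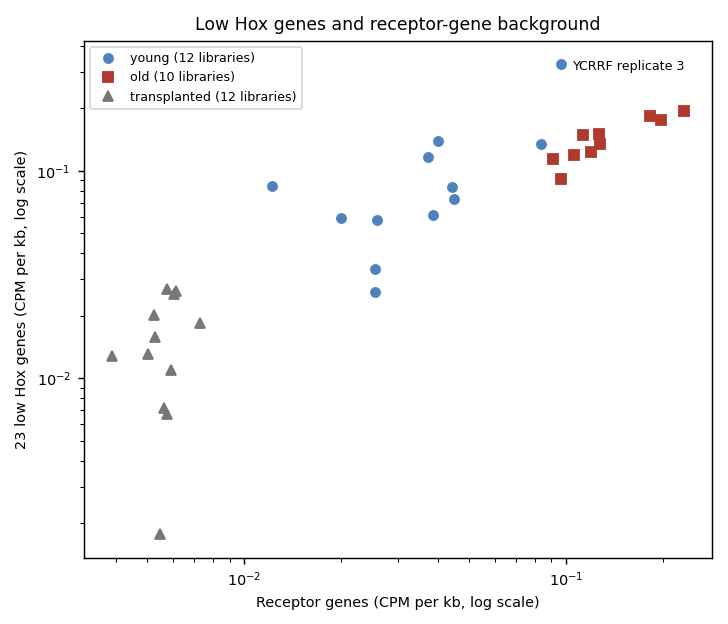
Summed level of the 23 Hox genes under 1 CPM (vertical axis) against that of the olfactory and vomeronasal receptor genes (horizontal axis), both in CPM per kilobase of exon on log axes, 1 point per library, coloured by set. Old libraries lie at 0.0913 to 0.233 CPM per kb on the receptor axis, young ones at 0.0122 to 0.0967 and transplanted ones at 0.00388 to 0.00730.

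Histone marks at the promoters were measured in OCR HSCs as the signal per base downstream of each start site, over 750 bases for H3K4me3 and 2000 bases for H3K27me3. A promoter was called high for a mark when it stood above the 0.75 quantile of 25127 genes in both replicates. H3K27me3 was high at 27 of the 39 Hox genes (69.2%), against 22.7% of all genes. H3K4me3 was high at 2, Hoxa3 and Hoxa10, against 23.3% of all genes. No Hox promoter was high for both marks, as were 0.374% of all promoters. All 9 Hoxc and all 9 Hoxd promoters were high for H3K27me3, with 5.33 to 8.56 and 4.36 to 8.88 per base in single replicates, where the median of all genes was 0.324 and 0.327 and the ninth decile 2.74 and 2.69.

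Within Hoxa and Hoxb the H3K27me3 signal was lowest inside the cluster and higher toward both ends. Hoxa2 had 2.32 and 1.68 per base in the 2 replicates, every gene from Hoxa3 to Hoxa10 had 0.139 to 0.550, and Hoxa11 had 8.22 and 8.57 and Hoxa13 5.10 and 5.26. The mark was thus lowest from Hoxa3 to Hoxa10 and highest at the posterior end of the cluster. In Hoxb it was lowest at Hoxb3 and Hoxb4 (0.0211 to 0.184), and the RefSeq start site of Hoxb3 lay under no ATAC peak. Hoxb5 had 0.195 and 0.253, Hoxb2 had 0.440 and 0.835, and the anterior Hoxb1 was high for the mark with 1.18 and 1.46. Toward the posterior end it was higher at Hoxb6 (0.764 and 0.897), Hoxb7 (1.03 and 0.852), Hoxb8 (1.81 and 2.20), Hoxb9 (2.53 and 2.47) and Hoxb13 (9.08 and 7.94). Hoxb9, which rose in OAL, therefore had a promoter high for H3K27me3 in OCR, while Hoxa9 had 0.139 and 0.219 per base. Hoxb6 was just below the 0.75 quantile in replicate 1.

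H3K4me3 was highest at Hoxa3 (44.7 and 44.5 per base) and Hoxa10 (37.3 and 34.1), followed by 25.4 to 28.5 at Hoxb2, Hoxb4, Hoxb5 and Hoxb6. At Hoxa9 it was 18.9 and 16.0, against a median of 10.8 and 10.2 over all genes. These windows begin at RefSeq start sites, and those of Hoxa9 (chr6:52227370) and Hoxa7 (chr6:52218573) lay under no ATAC peak. The window of the RefSeq start site of Hoxb3 held 0.398 and 0.809 per base although Hoxb3 had 16.0 CPM in OCR, and a further start site of the gene lies upstream. Among genes high for H3K27me3, Hoxb9 (21.0 and 21.9), Hoxb7 (24.1 and 22.9) and Hoxc9 (18.9 and 16.8) still had H3K4me3 above that median.

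RNA and H3K27me3 were ordered oppositely across the 39 genes in OCR. The 27 genes high for H3K27me3 had a median of 0.309 CPM and 6 of them (22.2%) reached 1 CPM, against 42.0% of all genes high for the mark. The other 12 had a median of 14.8 CPM and 11 of them (91.7%) reached 1 CPM, against 65.9% of all other genes. The exception was Hoxa4, with 0.579 CPM and 0.305 and 0.255 per base of H3K27me3. Spearman's rho across the 39 genes with CPM per kb was −0.79 for H3K27me3 and 0.525 for H3K4me3. This describes genes that sit side by side in 4 clusters and share 1 set of libraries.

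Open chromatin was measured at peaks in all 4 clusters. Of 131918 ATAC peaks, 107 lay in the 4 clusters with 5 kb on each side (522.5 kb in all), 26 in Hoxa, 39 in Hoxb, 15 in Hoxc and 27 in Hoxd. A peak overlapped a start site of 11 of the 12 genes not high for H3K27me3, with a median of 8.40 CPM for the strongest peak, and of 18 of the 27 genes high for it, with a median of 4.38 CPM. With peaks up to 1 kb away counted as well, these were 12 of 12 and 24 of 27 genes. The median of all peaks was 2.67 CPM. The highest start-site peaks were those of Hoxa7 (22.6 CPM) and Hoxa3 (20.0 CPM). Start sites for the peaks were those of GENCODE transcripts. The Hoxa7 peak (chr6:52221462-52222479) lay upstream of the RefSeq window in which the marks of Hoxa7 were read. Hoxa10 and Hoxb4 had 13.3 and 13.5 CPM. A start-site peak therefore stood at most Hox genes of both classes, with a larger share and a higher median among those not high for H3K27me3. The share over all genes was not counted.

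**Figure D5:**
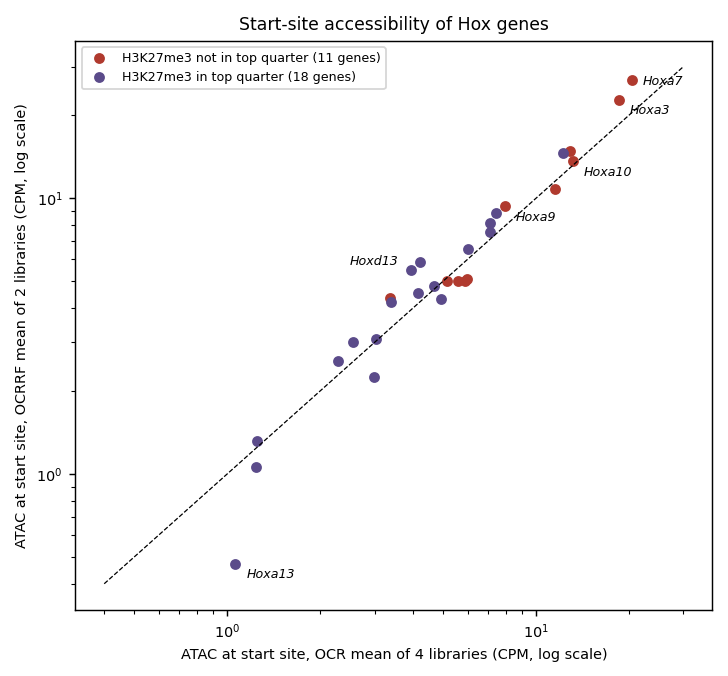
Mean ATAC level of the strongest start-site peak of each Hox gene in OCRRF (vertical axis) against OCR (horizontal axis), in CPM on log axes, with the diagonal of equal level and genes high for H3K27me3 marked. Hoxa7 lies above the diagonal with 20.4 CPM in OCR and 26.8 CPM in OCRRF, and Hoxa13 lies below it with 1.06 and 0.473 CPM.

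Refeeding was compared over the ATAC peaks as OCRRF against OCR. None of the 99 cluster peaks tested was called (adjusted p below 0.05, fold above 1.5 and mean log2 CPM above 1.5), against 0.221% of all peaks tested, and 8 had an unadjusted p below 0.05, as did 11.7% of all peaks. DESeq2 called none. The nearest was the start-site peak of Hoxa7 (chr6:52221462-52222479, 1018 bases), which read 20.4, 22.5, 19.2 and 19.7 CPM in OCR and 27.4 and 26.3 CPM in OCRRF. Both OCRRF values lay above all 4 OCR values, with a log2 fold change of 0.39 ± 0.10 (adjusted p = 0.0577) that is also under the fold of the rule. Hoxa7 RNA in the same comparison had −0.13 ± 0.14 (adjusted p = 0.668). Peaks at Hoxd8, Hoxd13 and Hoxa3 had 0.48, 0.47 and 0.29 and the low peak at Hoxa13 had −1.16 (adjusted p = 0.344, 0.376, 0.309 and 0.363). PU.1 peak lists of 2262 to 5464 peaks per library held 0 peaks in the 4 clusters in each of the 6 libraries, and these lists hold only peaks that passed the peak caller. The clusters span 522.5 kb and held 107 of the 131918 ATAC peaks, so few peaks would fall there in lists of this size. The count of 0 therefore does not show that PU.1 is absent from the clusters.

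The genes that work with Hox proteins were read from lists named for their function. The TALE homeodomain partners, which bind DNA with Hox proteins, were represented by 8 genes of the Meis, Pbx and Pknox families, and all 8 were tested in the diet comparisons. In OAL against YAL 2 of these 8 rose and none fell (6.89% of all genes rose and 7.93% fell), with a median log2 fold change of 0.17 over the 8 and 0.045 over all genes. Pbx3 rose by 0.83 (adjusted p = 0.00153), from 39.7 ± 4.97 to 70.2 ± 6.54 CPM (SD, n = 4 each). The other, Pknox2, had 0.360 ± 0.142 CPM in YAL and 1.497 ± 0.506 CPM in OAL (2.06, adjusted p = 0.0285). Pknox2 was a low gene, with at most 0.312 CPM in any transplanted library. The receptor genes also lay higher in all OAL than in all YAL libraries, and their part in the Pknox2 counts was not tested. Meis1, the partner of Hoxa9 in leukemia, was the most abundant of the 8 with 672.6 ± 65.6 CPM in YAL and 708.5 ± 39.7 CPM in OAL. Under restriction in the old, 1 of the 8 changed (5.57% of all genes did), Meis3, which fell by 0.87 in OCR (adjusted p = 3.8e-05), from 20.9 ± 0.863 to 11.3 ± 2.05 CPM. In OCRRF, Pknox1 fell against OCR (−0.59) and Meis1 fell against OAL (−0.29, adjusted p = 0.0309).

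The trithorax and elongation list holds 17 genes of the complexes that keep Hox genes active, among them Kmt2a, Men1 and Psip1, which tether the methyltransferase to chromatin, and Mllt1 and Mllt3, which read histone marks for the elongation machinery. In OAL against YAL 3 of 17 fell and none rose, where 7.93% of all genes fell and 6.89% rose. These were Psip1 (−0.37, from 216.1 ± 10.0 to 165.9 ± 5.29 CPM), Men1 (−0.41, from 147.3 ± 12.9 to 110.1 ± 7.21 CPM) and Mllt1 (−0.33, from 83.5 ± 7.04 to 65.7 ± 2.16 CPM). With the receptor-gene covariate 0 genes of the whole table were called lower in OAL, so these calls were lost. With TMM from genes of at least 5 CPM, 784 genes were called lower instead of 1866. Members of the lists were not followed singly in these settings. In OCR against OAL Psip1 rose (0.33, to 205.6 ± 17.3 CPM) and Mllt3 fell (−0.42, from 321.7 ± 16.9 to 237.6 ± 13.2 CPM), and in OCRRF against OCR Psip1 and Mllt1 fell (−0.49 and −0.45). No member of either list was called in the young comparisons, the interaction or the knockdowns. Of 16 noncoding genes of the clusters, 5 to 9 could be tested and none was called in any comparison. The most abundant, Hoxb3os, had 32.1 ± 5.09 CPM in YAL and 36.8 ± 2.44 CPM in OAL (SD, n = 4 each). Of the 3 caudal genes (Cdx1, Cdx2 and Cdx4), which activate Hox genes in the embryo, at most 2 had enough counts to be tested in any comparison and none was called.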

How the data were processed

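RNA was measured as raw counts per gene, which the authors made with STAR on mm10 and featureCounts with GENCODE M22 and deposited unnormalised. The deposited ATAC table holds raw counts in 131918 consensus peaks. The deposited histone tables hold the signal of each RefSeq transcript's promoter window, and the PU.1 peak lists give the fold enrichment and −log10 q of each library's peaks as deposited by the authors. Strand and multi-mapping settings of the counting are not given in the sources used here, and small counts were mostly even.

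Counts were tested with edgeR 4.0.16 (filterByExpr, TMM, quasi-likelihood, Benjamini-Hochberg over all genes or peaks, R 4.3.3), each comparison on its own groups. Genes were called at an adjusted p below 0.05 and a fold above 1.2, and peaks at a fold above 1.5 and a mean log2 CPM above 1.5. SE is the absolute log2 fold change over the square root of F. Levels are CPM after TMM over all diet or all transplanted libraries. Gene positions and exon lengths came from GENCODE M21 on GRCm38 and promoters from RefSeq (22 of 39 members matched). No libraries were identical, and the scripts were tested on simulated data. DESeq2 1.42.0, other filters and scalings, a replicate block and leaving out libraries were alternatives. Fold changes were given for members called in any comparison and for the 6 with the highest mean CPM, list members were named where called, and further members and peaks near the threshold were picked after their values were seen. The members and lists were chosen with earlier results of these data known. Authors' columns of fold changes were not used. Some genes of the clusters and lists are not reported here singly, and the partner list was counted without 1 of its genes.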

Additional observations from a re-analysis of the deposited data

Results flagged for a closer look

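In groups of 4 libraries, a library was singled out where its gap to the next was over Dixon's critical share of the range of its group. Over 112 groups (16 Hox genes in 7 groups of 4) 7 were singled out, where chance gives about 5.6, and no cause was tested. In YCR, Hoxa3 read 16.2 CPM in replicate 1 against 13.2 to 13.3 in the others. In YCR replicate 4, Hoxa7 was low (37.3 CPM against 51.6 to 53.7) and Hoxb7 high (5.73 CPM against 0 to 0.947). Hoxa9 read 84.1 CPM in OAL replicate 2 against 92.3 to 93.0 in the others, the lowest OAL value of a gene that fell with age, and without it the fall in OAL was −0.42 (adjusted p = 0.0308). Hoxb9 read 5.00 CPM in OCR replicate 1 against 7.33 to 7.76. In GFP_Kdr, Hoxb4 read 1.59 CPM in replicate 2 against 2.12 to 2.18, and Hoxb6 read 5.36 CPM in replicate 4 against 2.89 to 3.27, which is the level of both GFP_Scramble libraries (5.35 and 5.35 CPM).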

How the results depend on the processing

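Of the counts of Hox genes, peaks and promoters called, 13 moved and 197 did not. Small changes, such as 3 calls becoming 2 or 4, were not counted as moves. Only the size of a count was compared, not its members. In 1 fit of all groups OAL against YAL kept 3 calls, but Hoxa11 and Hoxc12 replaced Hoxb6 and Hoxb9. The PU.1 counts in the clusters were 0, so counts of subsets of those peaks could not move. The number of unmoved counts therefore overstates how stable the calls were. In OAL against YAL the 3 calls became 7 with no filter (adding Hoxa11, Hoxb13, Hoxc12 and Hoxd3, each at 0.700 CPM or less in every old library), 0 with the receptor-gene covariate and 1 to 5 when 1 library was left out. DESeq2 gave 4 there (adding Hoxb3). In OCRRF against OAL the count of 0 became 3 with DESeq2 and 2 with DESeq2 size factors or no filter. In YCRRF against YCR it became 1 (Hoxb8, 2.82, adjusted p = 0.0321) in 1 fit of all groups, and in OCR against OAL 0 to 1 without 1 library. Promoters high for both marks became 10 of 39 when promoters above the median counted as high (10.2% of all genes). Same-numbered libraries did not deviate together, so they share only a number. The replicate block left 1 call in OAL against YAL (Hoxa9), with Hoxb6 at an adjusted p of 0.0733 and Hoxb9 at 0.0502. With TMM from genes of at least 5 CPM, the all-gene median log2 fold change was 0.265 in OCRRF against OAL (0.122 otherwise), 0.238 against OCR (0.108) and 0.156 in OAL against YAL (0.045).

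Signs changed in 66 refits, all of uncalled values of the 6 most frequent members. In OCRRF against OCR, the filter and the TMM at 5 CPM turned Hoxa10 (0.033), Hoxa7 (0.0054) and Hoxa9 (0.037), the covariate Hoxa10 (0.014) and the replicate block Hoxb5 (−0.0057). In OCRRF against OAL, Hoxa5 was −0.0455 by DESeq2 or its size factors, −0.00040 unfiltered, −0.72 with the covariate and −0.069 to 0.13 without 1 library. Hoxb2 there was −0.030 by DESeq2 or its size factors and −0.028 to 0.13 without 1 library. Hoxb5 was 0.043 at 10 counts, 0.14 with the filter or the TMM at 5 CPM and with the replicate block, 0.0095 in 1 fit, and −0.047 to 0.13 without 1 library. In YCR against YAL, Hoxa7 was −0.00011 unfiltered, −0.0033 in 1 fit and −0.041 to 0.13 without 1 library. Without 1 library, Hoxa10 and Hoxa9 ranged from −0.021 to 0.21 and −0.029 to 0.031 in YCRRF against YCR. Hoxb2 in YCRRF against YAL ranged from −0.055 to 0.16, and was −0.0071 with the covariate. In OAL against YAL the covariate gave Hoxa5 0.18, Hoxa7 0.031 and Hoxb2 −0.046, and Hoxb5 was −0.016 unfiltered, −0.0063 in 1 fit and −0.12 to 0.086 without 1 library. In the interaction, Hoxa5 and Hoxa9 ranged from −0.12 to 0.16 and −0.058 to 0.053. With the Kdr hairpin, Hoxa7, Hoxa9 and Hoxb2 ranged from −0.022 to 0.16, −0.043 to 0.11 and −0.15 to 0.037, and the covariate gave −0.042 for Hoxa9 and 0.0061 for Hoxb2. With both hairpins, Hoxa5 and Hoxb5 ranged from −0.20 to 0.032 and −0.13 to 0.35. The cause was not tested.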
